A study of Mus musculus with 12 samples.

Results

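The genes described here are 9 genes of the mature B cell surface and of B cell signalling, namely Ms4a1, Cr2, Fcer2a, Cd22, Cd72, Cd37, Tnfrsf13c, Blk and Ralgps2. They were taken by their gene symbols from a table of 12199 genes, in which all 9 had a value, and all 9 were among the 12175 genes tested. RNA-Seq had been performed on whole BM cells of C57BL/6 mice of 4 genotypes, and the study asked whether mutants that differ in their disease also differ in gene expression. The mice were WT (3 libraries), DF (genotype Dnmt3aFlox/+:MxCre /Flt3 ITD/+, 3 libraries), TF (genotype Tet2+/-/Flt3ITD/+, 3 libraries) and TFD (genotype Tet2+/-/Flt3ITD/+ Dnmt3aFlox/+; MxCre, 2 libraries). All 3 mutant genotypes thus carried the Flt3 allele with an internal tandem duplication, a receptor tyrosine kinase allele found in acute myeloid leukemia, and no group carried a deletion of Tet2 or Dnmt3a alone. Mice of every group, WT too, were given poly(I:C) as young adults. Through interferon it switches on the Mx promoter of the Cre transgene, so that the floxed Dnmt3a allele is deleted in many cell types and not in B cells alone. The WT mice came from a core facility, and the labels give no age. Each library is taken as 1 mouse, and p-values measure the spread between these libraries. TFD replicate 3 was not analysed here.

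Mature B cells recognise antigen through the B cell receptor, whose signal is set by surface proteins that raise or lower it. Complement-coated antigen engages CD21, SRC family kinases phosphorylate the receptor tails, and inhibitory receptors such as CD22 and CD72 recruit phosphatases that damp the response. Survival of the mature cells depends on the cytokine BAFF. In BM such genes are used by late developing B cells and by mature B cells that recirculate through it.

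Library totals ranged from 8274153 to 15900904 counts. Levels are given as CPM, depth-scaled counts corrected with TMM factors (weights that correct for differences in RNA composition between libraries), which lay between 0.924 and 1.043. TF replicate 3 stood apart from the other mutant libraries. It lay above each of the other 7 mutant libraries for 7 of the 9 genes, all but Fcer2a and Cd37, and for 18.2% of all genes tested. For Cr2 this rests on 0.638 CPM (7 counts) against 0.635 CPM (8 counts) in DF replicate 1. TF replicate 3 is also among the 3 libraries, with WT replicate 3 and TFD replicate 2, that held over 10000 counts of Xist. Over all genes, the 2 TFD libraries differed most from each other, with a chi-square of their counts of 64.8 per gene against 10.2 to 31.7 for the other pairs of 1 genotype, and their neutrophil marker sums were 44992 and 22264 CPM. Where leaving out 1 library moved a value against WT by over 1.5 times or changed its call, the value without it is given too. Neutrophil markers, 9 genes that include S100a8 and Ltf, summed to between 22264 and 80219 CPM over all libraries, although the source label names mononuclear cells.

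All 9 genes lie on the minus strand in mm10, on 7 chromosomes. Promoter windows of 300 bases, from 250 before to 50 after a transcription start, were taken from RefSeq (build GRCm38.p6, the same coordinates as mm10) for the 7 genes that have an entry, in 10 windows. They were searched on both strands for 5 motifs of factors that act in B cells, and the windows below belong to the 4 of these genes that fell most in DF versus WT and to Cd37, which changed least. Capitals mark every match, and 2 of the 3 Fcer2a windows have none.
Cr2 promoter, chr1:195176670-195176969, minus strand: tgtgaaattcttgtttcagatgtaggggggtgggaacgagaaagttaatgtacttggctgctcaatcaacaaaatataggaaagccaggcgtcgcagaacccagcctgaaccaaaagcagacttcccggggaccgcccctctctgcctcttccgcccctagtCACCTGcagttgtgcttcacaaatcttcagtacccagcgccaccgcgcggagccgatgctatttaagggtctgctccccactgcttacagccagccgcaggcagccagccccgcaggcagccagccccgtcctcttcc
Fcer2a promoter window 1, chr8:3694125-3694424, minus strand: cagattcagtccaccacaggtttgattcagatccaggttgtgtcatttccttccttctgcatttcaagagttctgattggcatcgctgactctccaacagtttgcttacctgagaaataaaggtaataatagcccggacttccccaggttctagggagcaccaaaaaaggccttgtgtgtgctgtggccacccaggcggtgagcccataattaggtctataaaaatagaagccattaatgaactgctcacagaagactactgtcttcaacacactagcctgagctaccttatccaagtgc
Fcer2a promoter window 2, chr8:3690812-3691111, minus strand: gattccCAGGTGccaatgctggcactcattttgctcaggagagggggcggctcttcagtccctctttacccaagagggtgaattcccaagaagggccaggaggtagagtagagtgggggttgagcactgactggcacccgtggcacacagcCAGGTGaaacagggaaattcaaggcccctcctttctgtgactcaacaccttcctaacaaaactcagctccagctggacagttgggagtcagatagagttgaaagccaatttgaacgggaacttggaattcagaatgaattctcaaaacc
Fcer2a promoter window 3, chr8:3690341-3690640, minus strand: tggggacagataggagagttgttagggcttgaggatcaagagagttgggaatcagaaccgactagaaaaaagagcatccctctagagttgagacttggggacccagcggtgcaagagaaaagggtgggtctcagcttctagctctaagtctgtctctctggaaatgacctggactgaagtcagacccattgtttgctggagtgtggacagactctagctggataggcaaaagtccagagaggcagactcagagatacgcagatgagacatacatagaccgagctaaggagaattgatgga
Tnfrsf13c promoter, chr15:82224331-82224630, minus strand: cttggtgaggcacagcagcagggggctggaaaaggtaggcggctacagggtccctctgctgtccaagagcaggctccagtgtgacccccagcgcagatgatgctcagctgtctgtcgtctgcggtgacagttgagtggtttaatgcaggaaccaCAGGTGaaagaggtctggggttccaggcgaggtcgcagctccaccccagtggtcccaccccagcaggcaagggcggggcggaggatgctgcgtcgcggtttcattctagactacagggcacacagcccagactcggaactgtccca
Cd22 promoter, chr7:30878979-30879278, minus strand: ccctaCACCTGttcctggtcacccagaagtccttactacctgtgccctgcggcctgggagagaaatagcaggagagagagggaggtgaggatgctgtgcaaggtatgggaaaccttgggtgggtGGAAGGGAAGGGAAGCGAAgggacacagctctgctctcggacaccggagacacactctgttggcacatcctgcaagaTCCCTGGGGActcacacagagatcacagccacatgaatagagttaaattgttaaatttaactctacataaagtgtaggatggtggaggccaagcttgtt
Cd37 promoter, chr7:45238790-45239089, minus strand: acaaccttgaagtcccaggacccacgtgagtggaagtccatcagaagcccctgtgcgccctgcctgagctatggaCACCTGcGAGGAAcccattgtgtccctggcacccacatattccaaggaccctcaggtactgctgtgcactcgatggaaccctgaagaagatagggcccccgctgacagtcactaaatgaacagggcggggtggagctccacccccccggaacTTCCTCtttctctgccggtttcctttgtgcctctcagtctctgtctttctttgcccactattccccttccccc
The E-box letters CAGGTG, read by E2A, were found in 7 of the 10 windows and in 6 of the 7 genes, against 20.2% of all 32851 promoter windows. The gene without it was Cd72, and more sequence was searched for a gene with several windows. The letters GAGGAA, the core bound by PU.1, occurred in 2 genes, Cd72 and Cd37, against 28.3% of all windows. The Cd22 and Cd37 windows and Fcer2a windows 2 and 3 lie inside the spans of their genes given below. In the Cd22 window the capitals also mark TCCCNNGGG, letters bound by EBF1 (6.56% of all windows). They mark 3 overlapping copies of GGAANNGAA too, a composite site of PU.1 and IRF factors (8.24% of all windows). The octamer ATGCAAAT was in none of the 10 windows and in 1.74% of all windows. These matches describe letters only, and binding was not measured.

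In WT BM the 9 genes spanned a range of levels. As reads per kilobase of exon scaled to library depth, Cd37 had the highest mean at 53.6 ± 2.06 (SD, n = 3 libraries here and for each WT value), followed by Ms4a1 at 46.9 ± 8.71 and Cd72 at 27.7 ± 5.51. Blk stood at 15.5 ± 1.53, Tnfrsf13c at 12.9 ± 0.43, Ralgps2 at 12 ± 1.25 and Cd22 at 9.83 ± 0.22. The lowest levels per kilobase were those of Cr2, 5.29 ± 0.99, and Fcer2a, 5.23 ± 0.92. Neighbours in this order that overlapped in their WT libraries were Cd37 with Ms4a1, Tnfrsf13c with Ralgps2, and Cr2 with Fcer2a. The other neighbours were separated in every WT library. In DF the order per kilobase was Cd37 at 41.5 ± 4.31, Cd72 at 2.73 ± 0.36 and Ralgps2 at 2.11 ± 0.24, with Ms4a1 at 0.58 ± 0.45 and Cr2 at 0.060 ± 0.037 (SD, n = 3).

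**Figure D1:**
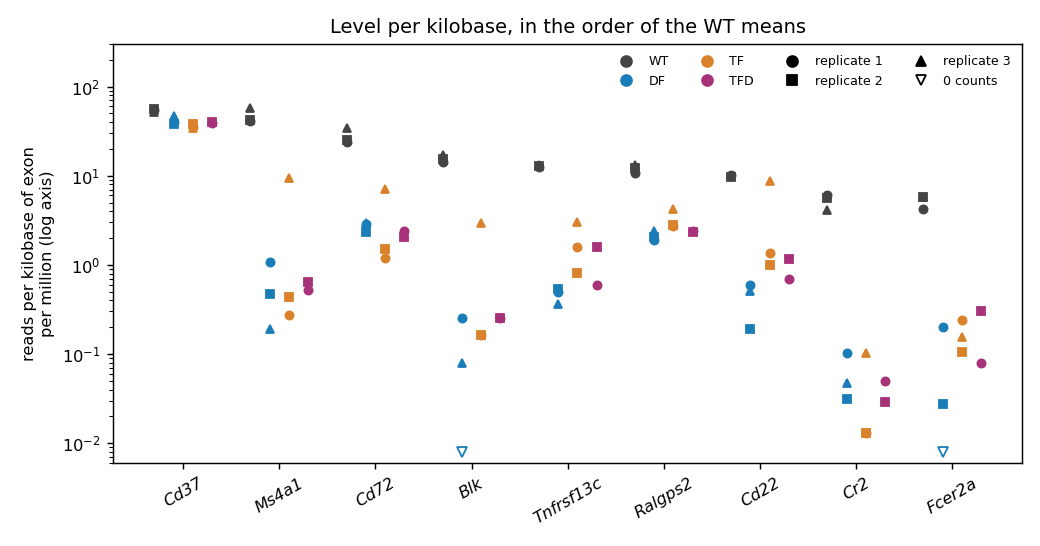
Level of each gene as reads per kilobase of exon, scaled to library depth (log axis), ordered by the WT mean, with 1 point for each library. Cd37 stays between 34.2 and 55.4 in all 11 libraries, the narrowest spread of the 9 genes on this log axis. WT (grey) lies above every mutant library for each gene.

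Each of the 9 genes was lower in all 8 mutant libraries than in all 3 WT libraries, a separation that 11.8% of all genes tested showed. In the tests, 9 of 9 genes were downregulated in DF versus WT, against 16.6% of all genes tested, 8 of 9 in TF versus WT, against 15.6%, and 9 of 9 in TFD versus WT, against 11.6%. A gene counts as downregulated at a Benjamini-Hochberg adjusted p under 0.05 over all genes in edgeR's quasi-likelihood test. With TFD replicate 1 left out, 7 of 9 were downregulated in TFD, against 8.52% of all genes, and with TFD replicate 2 left out 8 of 9, against 7.68%. None of the 9 was upregulated in these comparisons, against 2560, 2317 and 1789 of all 12175 genes tested in DF, TF and TFD. These numbers and the shares above are the background for the gene lists below. The median log2 fold change of the 9 genes was −4.74 in DF, −3.11 in TF and −3.62 in TFD. Without TF replicate 3 it was −4.35 in TF and −3.63 in TFD, so the order of TF and TFD rests on that library. It was −4.43 in TFD without TFD replicate 2. The median of all genes was 0.05, 0.02 and 0.01. The 3 comparisons share the WT libraries. In whole BM, fewer cells of a type and less RNA per cell cannot be told apart.

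**Figure D2:**
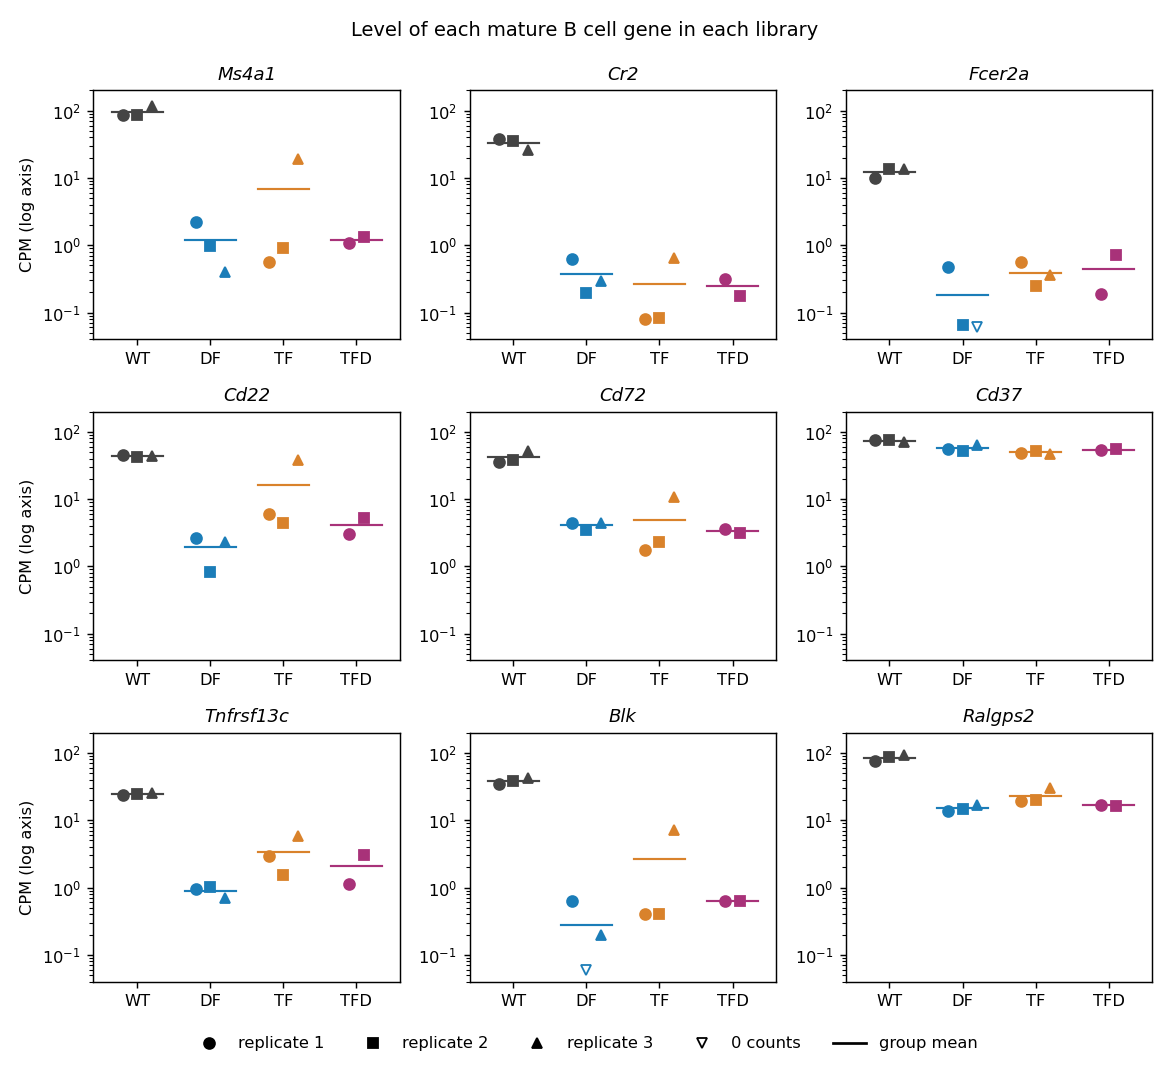
CPM of the 9 genes (log axis) in WT, DF, TF and TFD, with 1 symbol for each library and a line at the group mean; open triangles are libraries with 0 counts. All mutant libraries lie below all WT libraries in each panel. TF replicate 3 (upward triangle) is closest to WT for Cd22, at 38.1 CPM (87.7% of the WT mean), and next for Cd37, at 47.2 CPM (63.8%).

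Ms4a1 encodes CD20, a multi-pass membrane protein of B cells and the target of therapeutic antibodies such as rituximab. It had 84.7, 87.6 and 117.1 CPM in the 3 WT libraries. In DF it had 2.22, 0.97 and 0.40 CPM, and in TFD 1.06 and 1.34 CPM. The TF libraries held 0.57 and 0.90 CPM in replicates 1 and 2 and 19.4 CPM in replicate 3, so that 1 TF library lay well above the others and still below WT. The log2 fold change against WT was −6.29 ± 0.94 for DF, −3.83 ± 0.77 for TF and −6.34 ± 1.12 for TFD (± SE), at adjusted p-values of 0.000277, 0.00239 and 0.00141. Without TF replicate 3 the value for TF was −7.02 (adjusted p = 4.58e-08), and without DF replicate 1 that for DF was −7.04 (adjusted p = 0.00194). Most of its relatives in the MS4A family, many of them carried by myeloid cells, went the other way. Of 11 tested, 8 rose in DF, 6 rose and 1 fell in TF, and 6 rose in TFD, with medians of 1.05, 1.14 and 0.63. Of all 12175 genes tested, 2560, 2317 and 1789 rose in DF, TF and TFD, and 1899 fell in TF. In TFD the family ran from Ms4a2, a chain of the high-affinity IgE receptor, at −0.59 (adjusted p = 0.102) to Tmem176b at 2.06 (adjusted p = 8.63e-05). Ms4a1 lies on chromosome 19 from 11250603 to 11266151 with 2057 bases of exon.

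Cr2 encodes the complement receptors CD21 and, by alternative splicing in the mouse, CD35, which bind complement fragments on antigen. It showed 37.4, 35.3 and 25.8 CPM in WT. Of the mutant libraries, DF had 0.64, 0.19 and 0.30 CPM, TF 0.081, 0.082 and 0.64 CPM, and TFD 0.31 and 0.18 CPM. These values rest on 8, 3 and 3 counts in DF, 1, 1 and 7 in TF, and 5 and 2 in TFD, against at least 285 in each WT library. In each mutant genotype the mean was near 1% of WT (1.14%, 0.81% and 0.75% for DF, TF and TFD), and the log2 fold changes were −6.44 (SE 0.41, adjusted p = 1.79e-06), −6.95 (SE 0.43, adjusted p = 8.07e-07) and −6.94 (SE 0.51, adjusted p = 4.63e-06). TF replicate 3 holds 7 of the 9 TF counts. The fitted value for TF without it was −8.48 and rests on 2 counts, which are 0.248% of the WT mean with an exact Poisson 95% interval of 0.0300% to 0.895% for counting error alone. Without DF replicate 1 the value for DF was −7.08 (adjusted p = 1.92e-05). Cr2 lies on chromosome 1 from 195136811 to 195176715 with 6207 bases of exon.

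Fcer2a encodes CD23, the low-affinity receptor for IgE, which mature follicular B cells carry. It had 9.85, 13.7 and 13.4 CPM in WT, from 120, 111 and 150 counts. DF libraries held 6, 1 and 0 counts, TF libraries 7, 3 and 4, and TFD libraries 3 and 8. Unlike Ms4a1, Fcer2a in TF replicate 3 (0.36 CPM) lay between the other TF libraries (0.57 and 0.25 CPM). The log2 fold change was −5.99 ± 0.56 for DF, −4.93 ± 0.51 for TF and −4.86 ± 0.59 for TFD (± SE), at adjusted p-values of 1.57e-05, 2.61e-05 and 0.000108. In TFD it was −4.09 without replicate 1 (adjusted p = 0.00198) and −5.96 without replicate 2 (adjusted p = 0.000637). Without DF replicate 1 the fitted value for DF was −7.98, resting on 1 count. Fcer2a lies on chromosome 8 from 3681737 to 3694174 with 2358 bases of exon.

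Tnfrsf13c encodes the BAFF receptor, through which BAFF keeps mature B cells alive. WT libraries had 23.8, 24.4 and 25.4 CPM. The DF libraries had 0.95, 1.03 and 0.69 CPM, the TF libraries 2.99, 1.55 and 5.75 CPM, and the TFD libraries 1.13 and 3.03 CPM. Against WT the log2 fold change was −4.74 ± 0.43 for DF, −2.85 ± 0.37 for TF and −3.62 ± 0.46 for TFD (± SE), at adjusted p-values of 1.24e-05, 0.000126 and 0.000139. Without TFD replicate 1 the value for TFD was −3.01 (adjusted p = 0.00223), and without TFD replicate 2 it was −4.43 (adjusted p = 0.000511). Tnfrsf13c lies on chromosome 15 from 82221744 to 82224336 with 1906 bases of exon. The other genes of the BAFF and APRIL system, the 2 cytokines, their remaining receptors and downstream regulators, went in both directions. Of 11 tested, 2 rose and 3 fell in DF, 3 rose and 1 fell in TF, and 3 rose and 2 fell in TFD, with medians of −0.25, −0.18 and −0.27. Of all 12175 genes tested, 2560, 2317 and 1789 rose and 2023, 1899 and 1416 fell in DF, TF and TFD. Tnfrsf13b, which encodes TACI, another receptor of BAFF and APRIL, rose by log2 fold changes of 1.02 for DF, 1.17 for TF and 0.92 for TFD (adjusted p = 0.00121, 0.00062 and 0.00628). The BAFF gene Tnfsf13b did not pass the test, with 0.08 in DF, −0.35 in TF and 0.08 in TFD. In TFD the largest rise in the list was that of the APRIL gene Tnfsf13, 1.46 (adjusted p = 0.000588), and the largest fall that of Tnfrsf17, the plasma cell receptor BCMA, −1.49 (adjusted p = 0.0443).

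The inhibitory receptors were Cd22 and Cd72. CD22 is a sialic acid-binding lectin of B cells whose cytoplasmic tail recruits the phosphatase SHP-1. Cd22 had 44.5, 42.6 and 43.3 CPM in WT, the smallest relative spread of the 9 genes. It had 2.62, 0.84 and 2.28 CPM in DF, 3.06 and 5.17 CPM in TFD, and 6.06, 4.42 and 38.1 CPM in TF. TF replicate 3 thus stood at 87.7% of the WT mean and the other TF libraries at 12.1% on average. Cd22 was downregulated in DF and TFD, by log2 fold changes of −4.55 ± 0.73 and −3.43 ± 0.78 (± SE; adjusted p = 0.000453 and 0.00611). In TF the fold change was −1.44 (SE 0.58, adjusted p = 0.0736), which did not pass, and without TF replicate 3 it was −3.05 (adjusted p = 5.5e-06). Without TFD replicate 1 the value in TFD was −3.07 (adjusted p = 0.0594). Cd22 lies on chromosome 7 from 30865404 to 30880342 with 4421 bases of exon.

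CD72 is a C-type lectin of B cells with an inhibitory tail. Cd72 had 36.0, 37.6 and 51.1 CPM in WT, 4.37, 3.48 and 4.45 CPM in DF, and 3.63 and 3.12 CPM in TFD. The TF libraries had 1.78, 2.29 and 10.7 CPM, so they lay on both sides of DF and TFD. The log2 difference from WT came to −3.35 ± 0.47 for DF, −3.11 ± 0.46 for TF and −3.61 ± 0.56 for TFD (± SE), at adjusted p-values of 0.00017, 0.000342 and 0.000581, and Cd72 was downregulated in each. Without TF replicate 3 the value for TF was −4.35 (adjusted p = 5.04e-08), the lowest of the 3 in place of the highest. Cd72 lies on chromosome 4 from 43447724 to 43454626 with 1503 bases of exon. Among 10 other inhibitory receptors and phosphatases, 4 rose and 2 fell in DF, 3 rose and 1 fell in TF, and 1 rose and 1 fell in TFD, with medians of 0.18, 0.12 and 0.12. Fcgr2b, the inhibitory IgG receptor, rose by 0.63 for DF, 0.51 for TF and 0.78 for TFD (adjusted p = 0.00626, 0.0198 and 0.00427). Siglecg, a relative of CD22, fell, with −1.16 for DF, −1.11 for TF and −1.08 for TFD (adjusted p = 6.48e-05, 0.000109 and 0.000429).

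CD37 is a tetraspanin, a multi-pass protein that organises other membrane proteins, most abundant on B cells but present on other leukocytes. Cd37 changed least of the 9 genes. It had 74.7, 76.6 and 71.0 CPM in WT, 55.5, 52.6 and 64 CPM in DF, 48.2, 52.5 and 47.2 CPM in TF, and 54.2 and 54.6 CPM in TFD. The groups did not overlap with WT, and the means were 77.4%, 66.5% and 73.4% of WT in DF, TF and TFD. The log2 fold change was −0.37 ± 0.10 for DF, −0.59 ± 0.10 for TF and −0.45 ± 0.11 for TFD (± SE), at adjusted p-values of 0.0116, 0.000914 and 0.0115. The call in DF was lost without DF replicate 2 (−0.31, adjusted p = 0.061). The call in TFD was lost without either of its libraries, though the value hardly moved (−0.44 without replicate 1 and −0.45 without replicate 2). Cd37 lies on chromosome 7 from 45233632 to 45239115 with 1382 bases of exon. Of 16 other tetraspanins, 6 rose and 4 fell in DF, 3 rose and 5 fell in TF, and 4 rose and 5 fell in TFD, with medians of 0.24, −0.03 and −0.11. Cd81, a tetraspanin in the CD21 complex of B cells, fell, with −0.73 for DF, −0.87 for TF and −1.15 for TFD (adjusted p = 0.00831, 0.00349 and 0.0019). Cd53, a tetraspanin of all leukocytes, did not pass the test, with 0.19, 0.00 and −0.31. In TFD the list ran from Tspan33, −1.64 (adjusted p = 0.00725), to Tspan17, 2.07 (adjusted p = 0.000145).

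Blk encodes a SRC family kinase of the B lineage. It had 34.8, 37.7 and 42.3 CPM in WT. In DF it was at 0.64, 0 and 0.20 CPM, which are 8, 0 and 2 counts, and in TFD at 0.63 and 0.62 CPM. The TF libraries had 0.40, 0.41 and 7.21 CPM, the last being TF replicate 3. Against WT, Blk in DF gave −7.13 on the log2 scale (SE 0.92, adjusted p = 0.000103), the lowest of the 9 genes in that comparison. TFD gave −5.91 (SE 0.97, adjusted p = 0.000839). TF gave −3.88 (SE 0.68, adjusted p = 0.00108), or −6.52 without TF replicate 3 (adjusted p = 1.62e-07). Without DF replicate 2 the value for DF was −6.42 (adjusted p = 0.00113), and without DF replicate 1 the fitted value was −8.77, resting on 2 counts. Blk lies on chromosome 14 from 63372837 to 63417187 with 2475 bases of exon. Of 7 other SRC family kinases, 1 rose and 2 fell in DF, and none rose and 1 fell in TF and in TFD. Lyn, which also phosphorylates the B cell receptor but is shared with myeloid cells, did not pass the test, at 0.10 for DF, 0.09 for TF and 0.10 for TFD on the log2 scale. Lck, the kinase of T cells, fell in each (−1.46 in TFD, adjusted p = 0.00359), and Src had the largest value of the list in TFD, 0.49 (adjusted p = 0.387).

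Ralgps2 encodes an exchange factor that activates the small GTPase RAL independently of RAS. It had 76.0, 86.4 and 93.7 CPM in WT. Its mutant libraries were closer together than those of the other genes apart from Cd37, with 13.7, 14.6 and 16.9 CPM in DF, 19.6, 19.7 and 29.8 CPM in TF, and 17.0 and 16.5 CPM in TFD. DF, TF and TFD held 17.6%, 27.0% and 19.6% of its WT level, so that more of its level was retained than for any of the 9 genes but Cd37 and, in TF with replicate 3 included, Cd22. On the log2 scale it changed by −2.51 ± 0.17 for DF, −1.89 ± 0.16 for TF and −2.35 ± 0.19 for TFD (± SE), at adjusted p-values of 2.11e-06, 6.82e-06 and 7.12e-06. Ralgps2 lies on chromosome 1 from 156804166 to 156939626 with 7133 bases of exon. Its paralog Ralgps1 did not pass the test, with −0.46 for DF, −0.50 for TF and −0.57 for TFD (adjusted p = 0.0904, 0.0728 and 0.0875). Of 7 RAL GTPases and other exchange factors, 2 rose and 2 fell in DF, none was called in TF, and 1 rose in TFD, Rgl2 with 0.39 (adjusted p = 0.0461). The smallest value in TFD was that of Ralgds, −0.61 (adjusted p = 0.187).

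**Figure D3:**
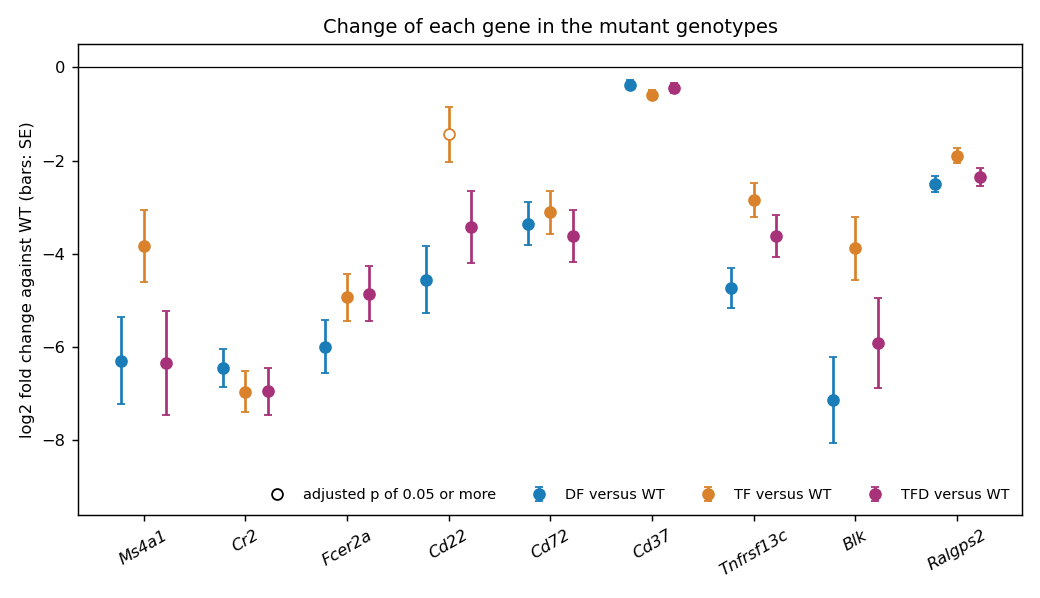
Log2 fold change against WT of each gene in DF, TF and TFD, with SE as bars; the open symbol did not pass an adjusted p of 0.05. Values run from −7.13 (Blk in DF) to −0.37 (Cd37 in DF), and the open symbol is Cd22 in TF.

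In GENCODE's annotation of mm10, Ms4a1, Cd22, Cd72, Cd37 and Ralgps2 overlap a gene on the opposite strand. The kit marks strand, but the strand setting of the counting is not given in the sources used here, so reads of such partners may be part of these counts.

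The genes with the most similar pattern were sought over all 11 libraries, as a description. With the mean of the 9 standardised profiles, the highest Pearson correlations were those of Pax5 (r = 0.995), Nfia (0.993), Cpm (0.993), Ebf1 (0.993) and Ehd2 (0.992). Pax5 and Ebf1 are transcription factors that set the identity of the B lineage. Gene by gene, the closest were Chst3 for Blk (0.998), Ccr7 for Tnfrsf13c (0.989), Cplx2 for Cr2 (0.994) and Gfra1 for Fcer2a (0.991). They were Tmem64 for Cd22 (0.986), Xk for Cd72 (0.992), Scyl2 for Cd37 (0.983) and D730005E14Rik for Ralgps2 (0.995). These points fall into WT and mutant libraries, so each r mainly holds that one contrast. Among the 9 genes, after group means were removed, Ms4a1 and Blk stayed closest (r = 0.976, 11 libraries), a value that TF replicate 3 enters, and the pairs of Cd37 with the other 8 genes ran from −0.48 to −0.05.

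Other B lineage genes were lower as well. Cd79a and Cd79b, which encode the signalling chains of the B cell receptor, fell in all 3 mutant genotypes. In TFD their log2 fold changes were −5.28 (adjusted p = 0.000214) and −3.14 (adjusted p = 4.63e-06). Of 23 other mature B cell genes tested, 16 fell and 1 rose in DF, 16 fell and 3 rose in TF, and 17 fell in TFD, with medians of −2.29, −1.43 and −2.13. In TFD these ran from Fcmr, the IgM Fc receptor, at −5.77 (adjusted p = 0.000921) to Cd40 at 0.61 (adjusted p = 0.08). Of 12 pro-B and pre-B cell genes tested, 11 fell in DF and 10 each in TF and TFD, with medians of −5.13, −3.80 and −4.84. Rag1, a recombinase gene of these stages, had the lowest value in TFD, −8.92 (adjusted p = 0.000196), and Cd93, which other BM cells also express, rose by 1.13 (adjusted p = 0.00169). Of 21 B cell receptor signalling genes, 11 fell in each genotype, while 4, 2 and 3 rose in DF, TF and TFD, with medians of −0.52, −0.74 and −0.68. Pik3cd, a lipid kinase gene, had the largest rise in TFD, 0.53 (adjusted p = 0.00564). The immunoglobulin genes Ighm and Ighd were not analysed here.

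Markers of some other cells moved with the genotypes too. The summed CPM of the 9 genes was 421.8 to 483.3 in WT, 73.7 to 89.3 in DF, 80.2 to 159.3 in TF and 81.2 to 85.3 in TFD. Cd37 makes up most of the sum in every mutant library but TF replicate 3, and the other 8 genes summed to 347.1 to 412.3 CPM in WT, 21.2 to 25.6 in DF, 29.6 to 112.0 in TF and 27.0 to 30.7 in TFD. The sum of 9 monocyte and macrophage markers was 2075 to 2426 CPM in WT and 4522 to 5682 CPM in the mutants, and 7 of the 9 rose in each mutant genotype, while 1 fell in TF. Erythroid markers summed to 1515 to 1965 CPM in WT and to 298.4 to 434.3 in DF, 574.6 to 1548 in TF and 548.8 to 683.0 CPM in TFD, and 8, 7 and 7 of the 8 fell. Of 9 T cell markers, 7, 2 and 5 fell, against 16.6%, 15.6% and 11.6% of all genes tested, so the count in TF is near that share. Their sum was 58.2 to 65.6 CPM in WT, 19.7 to 31.2 in DF, 29.5 to 72.9 in TF and 17.6 to 25.0 in TFD. Of 8 NK cell markers, 5, 5 and 4 fell while 1, 2 and 0 rose. Their sum was 43.8 to 45.8 CPM in WT, 22.7 to 33.5 in DF, 32.4 to 82.7 in TF and 23.6 CPM in both TFD libraries. Of 9 plasmacytoid dendritic cell markers, 7, 3 and 5 fell and 0, 2 and 0 rose, with sums of 310.1 to 376.0 CPM in WT, 109.5 to 122.0 in DF, 216.5 to 573.2 in TF and 136.1 to 234.4 in TFD. Plasma cell genes, 6, 2 and 6 of 9 of which fell while 2, 1 and 1 rose, summed to 941.2 to 1706 CPM in WT and 459.8 to 478.1 in DF, 637.9 to 1183 in TF and 572.6 to 681.7 in TFD. None of the 9 neutrophil markers rose, and 0, 3 and 1 fell. Each sum is led by the most abundant genes of its list. In DF, TF and TFD the median log2 fold change was −3.94, −1.21 and −2.01 for erythroid markers. It was −4.42, −0.40 and −2.57 for plasmacytoid dendritic, −1.59, −0.45 and −1.46 for T cell and −1.31, −1.13 and −1.62 for NK cell markers. Plasma cell genes had −1.73, −0.63 and −1.30, and the 9 genes −4.74, −3.11 and −3.62. The part of these cells in the decrease of the 9 genes was not tested.

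**Figure D4:**
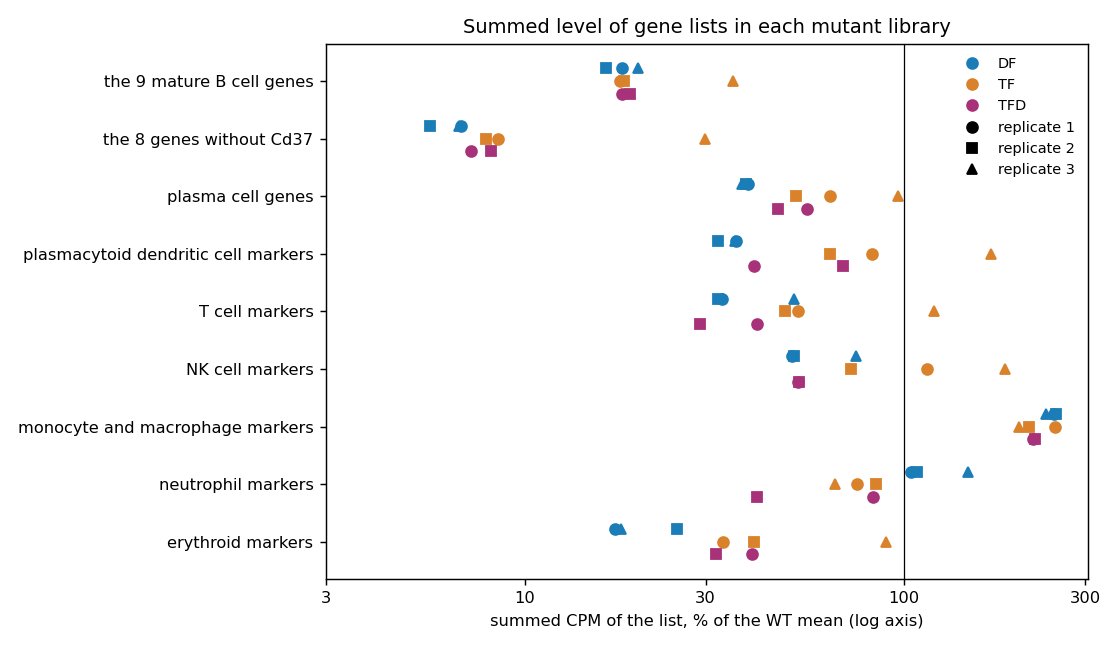
Summed CPM of the 9 genes, of the 8 without Cd37 and of marker lists in each mutant library as a percentage of the WT mean (log axis, line at 100). The 9 genes lie between 16.4% and 19.9% in 7 mutant libraries and at 35.5% in TF replicate 3, and without Cd37 the other 8 lie between 5.65% and 8.53% and at 29.9%. No gene was left out of the marker lists, whose sums are led by their most abundant genes. TF replicate 3 is also the highest of the mutant libraries for plasmacytoid dendritic, T, NK, plasma and erythroid lists.

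TF replicate 3 was examined across these genes. As a percentage of the WT mean, it was at 20.1% for Ms4a1, against 0.76% for the mean of TF replicates 1 and 2, at 18.8% for Blk against 1.06%, at 25.7% for Cd72 against 4.89%, at 23.4% for Tnfrsf13c against 9.26%, and at 34.9% for Ralgps2 against 23.0%. For Fcer2a it was at 2.96% against 3.29%, and for Cd37 at 63.8% against 67.9%, so these genes did not share the pattern. Rag1 stood at 4.02% against 0.14%. Without this library, 9 of 9 genes were downregulated in TF versus WT, against 16.6% of all genes tested. Its erythroid marker sum was 89.9% of the WT mean, its plasma cell sum 96.2%, its T cell sum 119.9%, its plasmacytoid dendritic sum 169.2% and its NK cell sum 184.7%. Most of this NK cell sum of 82.7 CPM came from Klrk1 (36.8 CPM, 283% of the WT mean) and Klrd1 (34.9 CPM, 513%). The other NK cell markers lay below the WT mean, from 3.78% for Gzma to 76.8% for Gzmb. The part of these cells was not tested.

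Between mutants, DF was lower than TF for 3 of the 9 genes, against 4.27% of all genes tested. These were Cd22, whose DF to TF difference was −3.11 on the log2 scale (SE 0.73, adjusted p = 0.0281), Tnfrsf13c with −1.89 (SE 0.47, adjusted p = 0.0349) and Ralgps2 with −0.61 (SE 0.17, adjusted p = 0.0481). For each of the 3, every DF library lay below every TF library, a separation that 12.1% of all genes showed, and for Cd37 every DF library lay above every TF library, as for 13.7% of all genes. The other genes did not pass. Blk was at −3.24 (SE 1.13, adjusted p = 0.123), Ms4a1 at −2.46 (SE 1.02, adjusted p = 0.207), Fcer2a at −1.06 (SE 0.82), Cd72 at −0.25 (SE 0.50), Cd37 at 0.22 (SE 0.10) and Cr2 at 0.51 (SE 0.72). Without TF replicate 3, Cd22 alone kept its call (−1.5, adjusted p = 0.0336, against 2.21% of all genes lower), with Tnfrsf13c at −1.31 (adjusted p = 0.131) and Ralgps2 at −0.39 (adjusted p = 0.196). None of the 9 was called when any 1 of the DF libraries was left out or when only DF and TF entered the fit, and 1 was called without WT replicate 2.

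**Figure D5:**
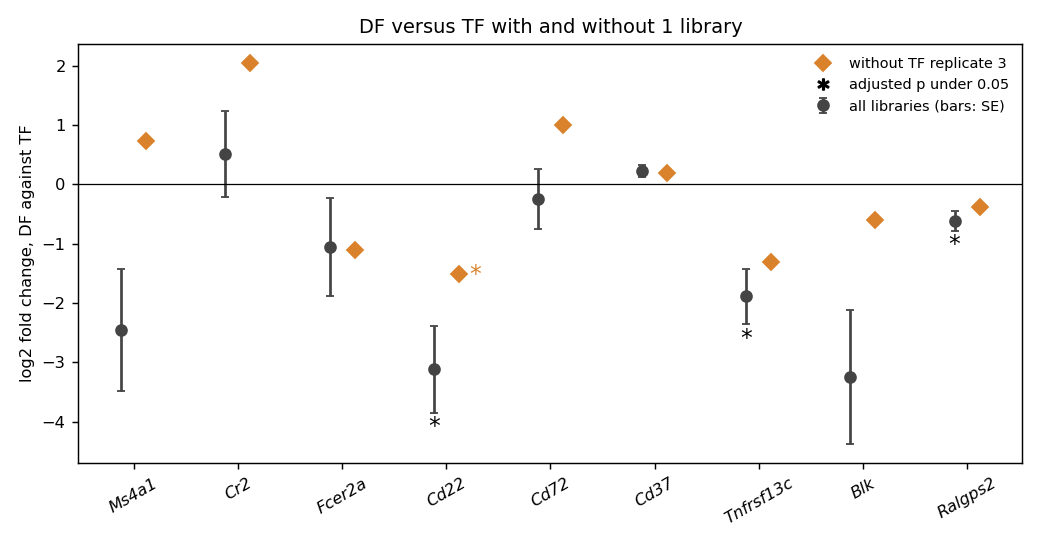
Log2 fold change of each gene in DF versus TF from all libraries (circles, SE bars) and without TF replicate 3 (diamonds); asterisks mark an adjusted p under 0.05. Ms4a1 goes from −2.46 to 0.74 and Cd72 from −0.25 to 0.996 without that library.

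In DF versus TFD and in TF versus TFD, 0 of the 9 genes were called, against 0% and 0.0164% of all genes tested. Over all genes, edgeR gave 1727 and 1068 genes with an unadjusted p under 0.05, and DESeq2 called 258 and 131 genes, with 0 of the 8 for which it gave an adjusted p among them (it gave none for Ms4a1). In DF versus TFD the log2 fold changes ran from −1.21 for Blk (SE 1.55) to 0.51 for Cr2 (SE 0.79). Tnfrsf13c was at −1.12 (SE 0.54, adjusted p = 0.373) and Cd22 at −1.12 (SE 0.87, adjusted p = 0.597). In TF versus TFD they ran from −0.14 for Cd37 (SE 0.11) to 2.51 for Ms4a1 (SE 1.18, adjusted p = 0.572), which was −0.68 without TF replicate 3. With 2 TFD libraries and standard errors of this size, differences of several fold in Ms4a1, Blk and Cd22 were not detectable.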

How the data were processed

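Whole BM RNA was treated with GlobinClear and made into libraries with a stranded total RNA kit. Per the submitters' processing notes and the study's methods, the authors mapped reads with STAR on mm10, summed uniquely placed reads over each refGene gene in featureCounts and kept genes with CPM over 0.5 in more than 3 samples; versions are not given in the sources used here. The deposited counts are whole reads per gene. Deposited beside them are log2 CPM values (recovered from the counts in edgeR with a prior of 0.25, to 5e-09) and exon lengths, which gave levels per kilobase. Groups came from the sample labels, and 11 libraries entered.

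Genes with CPM over 0.5 in more than 3 libraries were tested (12175 of 12199). The test was edgeR 4.0.16 in R 4.3.3, a quasi-likelihood fit with TMM factors and 4 genotype means, with Benjamini-Hochberg adjustment over all genes and calls at 0.05. SEs come from the F statistic. With 2 or 3 mice a genotype, the spread between mice limits the precision, and counting error adds to it below about 10 counts. Script procedures were tested on simulated data. Alternatives were DESeq2 1.42.0, library totals, RLE factors, no filter, only the genotypes compared, limma 3.58.1 on log2(CPM + 1), the replicate number as a block, a covariate marking the libraries of 10000 or more Xist counts, and each library left out. The sum without Cd37 was added after seeing the data. Figures used matplotlib.

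The 9 genes, the lists, the motifs and the tests were chosen with earlier results of these data known. Named from each list are at most those of most positive and most negative fold change between TFD and WT, beside fixed partners and paralogs of the 9 genes. Klrk1 and Klrd1 were named after their values were seen. One gene that the rules would name is not reported here.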

Additional observations from a re-analysis of the deposited data

How the results depend on the processing

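Of the values that the alternatives gave for the 9 genes against WT, 502 kept their direction and their side of the threshold, 4 of Cd22 in TF versus WT passed it (limma −1.96, the replicate block −1.93, the Xist term −1.93 and without TF replicate 3 −3.05), and 4 fell short when a library was left out. DESeq2 gave no adjusted p for Ms4a1 in any comparison, so its counts rest on 8 genes. The count of genes called with each library left out ran from 8 to 9 in DF versus WT, from 8 to 9 in TF versus WT and from 7 to 9 in TFD versus WT. Whether the replicate numbers pair the samples could not be decided. The deviations of 15 same-numbered pairs of libraries correlated from −0.37 to 0.31, and those of 30 other pairs from −0.31 to 0.37. Deviations from the mean of 2 or 3 libraries depend on each other, so these values cannot settle it. The block gave 9, 9 and 9 calls against WT and 2 in DF versus TF. In DF versus TF, 3 genes were called, but 0 when only the 2 genotypes compared were fitted, 1 with limma, 1 with the Xist term, and 0 to 4 with a library left out. Over all genes, 723 were called in DF versus TF and 169 to 933 with a library left out. DF versus TFD gave 0, but 258 with DESeq2, 135 when only these genotypes were fitted, 42 with the block and at most 384 when 1 library was dropped, and TF versus TFD gave 2, but 131 with DESeq2 and at most 76 when 1 was dropped. Values that changed sign did so among mutants and without a call. In DF versus TF, Cd72 was 0.10 with limma and 0.25 with the Xist term, and with a library left out Ms4a1 ran from −3.21 to 0.74, Cr2 from −0.13 to 2.04 and Cd72 from −0.65 to 0.996. In DF versus TFD, Ms4a1 was −0.0384 with library totals, −0.0866 with limma and −0.395 with the block, Cd72 was −0.0384 with the block and Cd37 −0.0208 with library totals, while with a library left out Ms4a1 ran from −0.70 to 0.36, Cr2 from −0.13 to 1.002 and Cd37 from −0.0396 to 0.13. In TF versus TFD, Cr2 was 0.0232 when only the 2 genotypes were fitted and 0.0856 with the block, Cd72 was −0.0155 with the block, and with a library left out Ms4a1 ran from −0.68 to 3.07, Cr2 from −1.54 to 0.49, Fcer2a from −0.84 to 1.02, Cd72 from −0.74 to 0.91 and Blk from −0.61 to 2.56. Where the setting leaves 1 TFD library, that library is assumed to vary like the other groups. The cause of these changes was not tested.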
